A study of Rattus norvegicus with 22 samples.

Results

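The 9 genes described here carry the BDNF and GDNF growth factor signal: the ligands Bdnf, Ntf3 and Gdnf, the neurotrophin receptors Ntrk2, Ntrk3 and Ngfr, and the GDNF family receptors Gfra1, Gfra2 and Ret. They were taken by exact symbol from the 17310 genes listed in every count table, and all 9 were present. RNA from the nucleus accumbens (NAc), core and shell together, was sequenced in 22 male outbred Wistar rats. In experiment 1, 5 rats had water only (water) and 5 had free choice of water and 6% v/v ethanol (EtOH) for 8 weeks. In experiment 2 all 12 rats drank 6% v/v EtOH beside water, over 4 weeks that preceded and 2 weeks that followed 3 weeks of gavage. During that period 6 rats received EtOH by gavage 2 times daily, 2.5 g/kg each time from a 30% v/v stock (EtOH gavage), and 6 received water by gavage (water gavage). The controls of experiment 2 were therefore drinking rats too, and the comparison there was of added EtOH, not of EtOH against none. Each experiment was tested on its own. The labels treat each rat as a separate sample.

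Brain-derived neurotrophic factor (BDNF) binds the tyrosine kinase TrkB, encoded by Ntrk2, and neurotrophin-3, encoded by Ntf3, binds mainly TrkC, encoded by Ntrk3. The low-affinity receptor p75NTR, encoded by Ngfr, binds all neurotrophins and their uncleaved precursors. Glial cell line-derived neurotrophic factor (GDNF) binds a membrane-anchored co-receptor, GFRα1, and the complex activates the tyrosine kinase RET. GFRα2 does the same mainly for neurturin. Both ligands act on the dopamine system that projects to the NAc. Much of the striatal BDNF protein is made in cortical neurons and carried down their axons, so a transcript count in the NAc does not measure the protein there. The counts are per gene, so the full-length and truncated forms of TrkB, and the Bdnf transcripts that begin at different promoters, were summed.

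Depth ranged from 2962291 to 5247386 reads assigned to genes in experiment 1 and from 6713617 to 8765472 in experiment 2. Levels are given as counts scaled to each rat's assigned reads after these were adjusted by the rat's TMM normalization factor from edgeR (CPM). These levels compare 1 gene between rats but not different genes, since no transcript lengths were used. Reads were present for 10 of 11 listed striatal projection neuron symbols, among them Drd1, Drd2, Adora2a and Penk. The other, Drd1a, is an older symbol of Drd1. The summed level of the 10 ranged from 2704 to 5368 CPM in experiment 1 and from 4318 to 8512 CPM in experiment 2. The presence of reads alone does not identify a tissue, and these markers do not single out the NAc within the striatum. Of all the genes listed as markers of projection neurons and 7 other cell types, 1, the fibroblast collagen Col1a2, had no reads in any rat. Col1a1, Col3a1, Dcn and Lum, of the same list, had mean counts of 74.2, 44.4, 33.5 and 22.8 per rat in experiment 1. The lack of Col1a2 reads thus does not show a lack of fibroblasts. In experiment 2 the rats differed widely in cortical neuron transcripts: the summed level of 9 markers (among them Slc17a7, Tbr1, Neurod6, Cux2, Neurod2, Fezf2, Rorb and Slc17a6) ranged from 23.5 to 586 CPM in water gavage rats and from 37.8 to 477 CPM in EtOH gavage rats. In experiment 1 it ranged from 236 to 851 CPM in water rats and from 323 to 781 CPM in EtOH rats. Water gavage replicates 1 and 5 and EtOH gavage replicate 1 were lowest, with 44.0, 23.5 and 37.8 CPM. They had 23, 1 and 13 counts of Slc17a7, the vesicular glutamate transporter of cortical neurons. The other 9 rats of experiment 2 had at least 79.0 CPM and at least 165 counts. EtOH gavage replicates 2 and 4 were next, with 79.0 and 108 CPM and 165 and 375 Slc17a7 counts, and the rest had at least 260 CPM. The fold changes of experiment 2 are given with and without the 3 lowest rats. These were set apart by a cut relative to the highest rat, chosen after seeing the data, and EtOH gavage replicates 2 and 4 fell above it. Reads that fell in no gene, as a share of these and the assigned reads, were 54.5%, 52.8% and 58.0% in the 3 lowest rats. They were 56.4% in EtOH gavage replicate 2 and 46.1% to 51.7% in the other rats of experiment 2. Whether this share and the cortical level have a common source was not tested. In such bulk tissue, fewer cells of a type and less RNA per cell cannot be told apart.

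Bdnf is transcribed from several promoters, and the rat promoter table held 6 windows for it (RefSeq, build GRCr8, 250 bases before and 50 after a transcript start). Of the 9 genes, 5 had a window (Bdnf, Ntf3, Gdnf, Gfra1 and Ret), 12 windows in all. They were searched on both strands for the 5-base core of the cyclic AMP response element, TGACG, which can be bound by CREB, a factor activated downstream of TrkB. The core was found in 1 of the 6 Bdnf windows and in the single Gdnf window, and in none of the other 5; 21.2% of all 33469 promoter windows held it. The most upstream Bdnf window, which lacks the core, is given first, followed by the 2 windows that hold it, in capitals, beginning at base 216 of 300 in Bdnf and at base 202 in Gdnf. Both matches are to the opposite strand and so read CGTCA. All are on the + strand, 5′ to 3′. A match of letters is not a binding site, and the gene counts do not tell which Bdnf start was used.
Bdnf, chr3:116619383-116619682: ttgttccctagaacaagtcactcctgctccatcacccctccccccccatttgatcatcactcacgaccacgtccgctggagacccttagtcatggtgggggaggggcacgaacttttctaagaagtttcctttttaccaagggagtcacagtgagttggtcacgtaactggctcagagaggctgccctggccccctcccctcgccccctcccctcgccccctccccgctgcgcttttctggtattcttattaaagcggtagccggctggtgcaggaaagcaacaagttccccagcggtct
Bdnf, chr3:116637608-116637907: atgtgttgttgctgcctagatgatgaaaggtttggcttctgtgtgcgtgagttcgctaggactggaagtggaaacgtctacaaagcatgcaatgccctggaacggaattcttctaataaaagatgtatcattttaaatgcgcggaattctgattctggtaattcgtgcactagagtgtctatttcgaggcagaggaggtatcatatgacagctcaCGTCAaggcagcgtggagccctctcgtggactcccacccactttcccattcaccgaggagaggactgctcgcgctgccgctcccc
Gdnf, chr2:58621077-58621376: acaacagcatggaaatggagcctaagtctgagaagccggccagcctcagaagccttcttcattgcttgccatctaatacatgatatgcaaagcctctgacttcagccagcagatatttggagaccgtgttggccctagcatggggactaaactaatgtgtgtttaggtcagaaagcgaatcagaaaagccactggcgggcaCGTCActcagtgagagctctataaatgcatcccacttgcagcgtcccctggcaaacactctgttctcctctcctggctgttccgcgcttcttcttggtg

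No gene of the 9 differed between EtOH and control rats at a false discovery rate (FDR) below 0.05 in either experiment. Counts were fitted by quasi-likelihood in edgeR, with P-values adjusted by the Benjamini-Hochberg method over the 8655 genes above the median base mean of each experiment. The share of all tested genes called at this FDR was 0% in both. The filter admitted 4 of the 9 genes in experiment 1 (Ntrk2, Ntrk3, Gfra1 and Gfra2) and 5 in experiment 2 (the same and Bdnf). The remaining genes lay below it and are given from the same fit without a filter, over 14024 genes in experiment 1 and 14121 in experiment 2, where again 0% reached that FDR. At an unadjusted P below 0.05, the filtered fit named 1 of 4 in experiment 1 (Gfra1), against 5.58% of all tested genes, and 0 of 5 in experiment 2, against 1.33%. Without a filter it named 4 of 9 in experiment 1 (Ntf3, Ngfr, Gdnf and Gfra1), against 5.85% of genes, and 1 of 9 in experiment 2 (Ret), against 2.03%. None of these had an FDR below 0.70. The EtOH and control rats overlapped for every one of the 9 genes, and the groups did not overlap for 0.813% of genes in experiment 1 and 0.0283% in experiment 2.

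**Figure D1:**
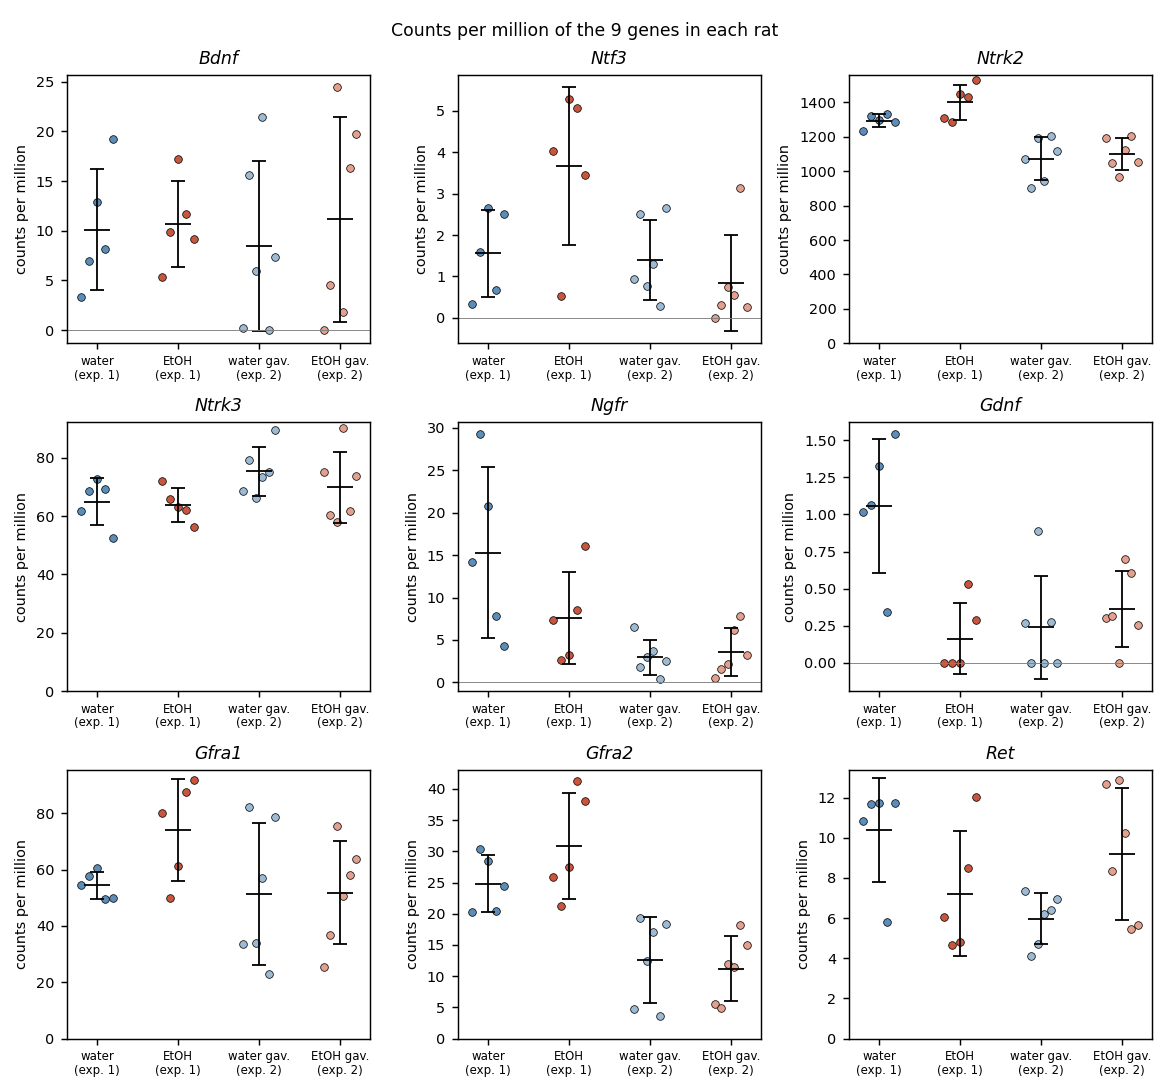
CPM (vertical axis, linear, starting at or below 0) of each gene in each rat, with the 5 + 5 rats of experiment 1 at left of each panel and the 6 + 6 of experiment 2 at right. Points are rats and bars are the group mean ± SD. Points of the EtOH and control groups overlap in every panel.

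No difference in Bdnf was detectable between EtOH and water rats of experiment 1. Its level was 3.39, 6.91, 12.9, 8.18 and 19.2 CPM in the water rats and 5.38, 9.85, 17.2, 11.7 and 9.17 CPM in the EtOH rats, so that every EtOH value lay inside the range of the water rats. The means were 10.1 ± 6.13 and 10.7 ± 4.32 CPM (SD, n = 5 each), and the log2 fold change was 0.03 (SE 0.34, edgeR without filter, FDR = 0.992; exact permutation p = 0.706). Its 95% interval, −0.68 to 0.74, leaves room for a change in either direction.

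In experiment 2 Bdnf ran from no reads to well over 100 in both groups. The lowest, median and highest levels were 0, 6.69 and 21.5 CPM in the water gavage rats and 0, 10.4 and 24.5 CPM in the EtOH gavage rats, with 1 rat of each group at 0 counts. The counts were 2, 125, 47, 183, 0 and 67 in the water gavage rats and 0, 29, 196, 13, 135 and 154 in the EtOH gavage rats. A count of 0 allows up to 3 counts. The log2 fold change was 0.37 (SE 1.04, 95% interval −1.88 to 2.61, edgeR FDR = 0.863; exact permutation p = 0.740). The SD of log2 CPM within groups was 2.59, against a median of 0.349 over all 8655 tested genes, and was the 4th highest of them. The interval is therefore too wide for a change of either sign to be told from none.

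The spread of Bdnf in experiment 2 moved with cortical neuron markers. Over the 12 rats, with both measures centred on their group means, Bdnf (log2 CPM) correlated with the mean log2 CPM of the 9 markers at r = 0.979 (permutation p = 9e-05, adjusted p = 0.0130) and rho = 0.958 (permutation p = 0.00013, adjusted p = 0.0187). These are 2 of the values for 144 relations computed, of each gene with each of 8 marker lists in each experiment, with adjustment over all 144. Without the 2 rats farthest from the median score r was 0.954, and without the 3 rats lowest in these markers it was 0.895 (rho = 0.917, n = 9). In experiment 1 the relation was r = 0.842 (permutation p = 0.0114, adjusted p = 0.182) and rho = 0.794 (permutation p = 0.0198, adjusted p = 0.340), and r was 0.685 without the 2 farthest rats. The lowest p of Bdnf in that experiment was with the score of 4 neuroblast markers instead (r = 0.792, permutation p = 0.00245, adjusted p = 0.0882). With the neuroblast score r was −0.03 in experiment 2 (permutation p = 0.933). The 3 rats with 23, 1 and 13 Slc17a7 counts had 2, 0 and 0 Bdnf counts, and the other 9 had at least 13. Left out, they moved the Bdnf log2 fold change to 0.06 (SE 0.63, edgeR FDR = 0.957). The cortical score itself differed between EtOH gavage and water gavage rats by 0.09 log2 units (exact permutation p = 0.931). With the score as a covariate, a setting chosen after seeing the data, the log2 fold change of Bdnf was 0.61 in experiment 2 and −0.15 in experiment 1, both with an unadjusted P above 0.05.

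**Figure D2:**
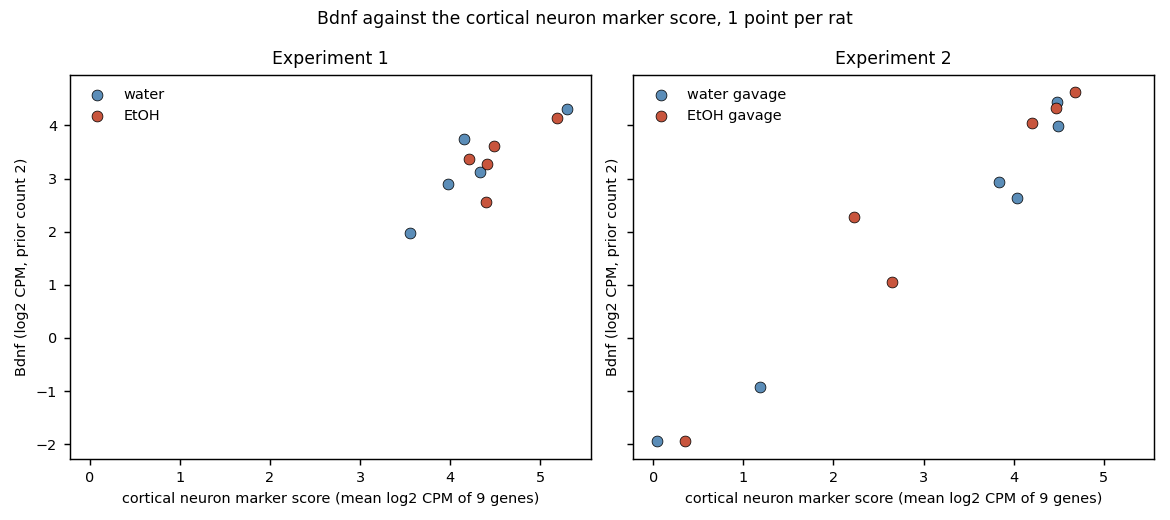
Bdnf (vertical axis, log2 CPM with a prior count of 2) against the cortical neuron marker score (horizontal axis, mean log2 CPM of 9 genes), 1 point per rat, coloured by group. The 3 rats at the lower left of the experiment 2 panel have 2, 0 and 0 Bdnf counts, and the 10 rats of experiment 1 fall within a narrower range.

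The genes most like Bdnf across rats of both experiments, by the lower of the r values within groups among 8176 genes, were Anxa11, an annexin (r = 0.907 over 10 rats and 0.908 over 12), Nav3, a neuron navigator (0.925 and 0.905), and Syt17, a synaptotagmin (0.914 and 0.905). They were picked for this likeness, so no test is given.

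Ntf3 was a low-count gene with fold changes of opposite sign in the experiments, neither past the FDR. Its counts were 1, 6, 14, 2 and 13 in the water rats and 12, 2, 23, 19 and 12 in the EtOH rats of experiment 1, or 1.55 ± 1.04 and 3.66 ± 1.91 CPM (SD, n = 5). The levels of 4 of 5 EtOH rats lay above every water rat, and the remaining EtOH rat had 2 counts. The pooled ratio of EtOH to water was 2.06 (95% interval 1.36 to 3.18, counting error only), and edgeR without filter gave a log2 fold change of 1.09 (SE 0.50, FDR = 0.843). The exact permutation test over rats gave p = 0.143, two-sided, where the smallest possible is 0.00794.

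Ntf3 counts in experiment 2 were 7, 20, 6, 11, 2 and 24 in water gavage rats and 0, 2, 6, 4, 26 and 2 in EtOH gavage rats. EtOH gavage replicate 5 alone held 26 of the 40 counts of its group. The pooled ratio was 0.622 (0.411 to 0.931, counting error only) and the log2 fold change −0.71 (SE 0.76, edgeR without filter, FDR = 0.719; exact permutation p = 0.193). Without that rat it was −1.84, and without the 3 rats low in cortical markers −0.82 (SE 0.69, edgeR FDR = 0.527). The difference between the 2 experiments was −1.82 (SE 0.99, edgeR FDR = 0.830 in a fit of all 4 groups).

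Ntrk2, the receptor for BDNF, was the steadiest of the 9. It had 1235, 1318, 1295, 1332 and 1282 CPM in the water rats and 1305, 1287, 1445, 1428 and 1528 CPM in the EtOH rats of experiment 1. The means were 1292 ± 37.5 and 1399 ± 101 CPM (SD, n = 5), and 3 of 5 EtOH rats lay above every water rat. The log2 fold change was 0.12 (SE 0.06, 95% interval −0.0025 to 0.24, edgeR FDR = 0.866; exact permutation p = 0.0873), which bounds a change in Ntrk2 mRNA more tightly than for any other of the 9 genes. Its SD within groups, 0.080 log2 units, was smaller than that of most genes; only 7.06% of tested genes had a smaller one.

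The lowest, median and highest Ntrk2 levels of experiment 2 were 903, 1094 and 1203 CPM in water gavage rats and 967, 1088 and 1202 CPM in EtOH gavage rats. The groups covered nearly the same range, and the log2 fold change was 0.0039 (SE 0.10, 95% interval −0.21 to 0.22, edgeR FDR = 0.985; exact permutation p = 0.647). It was 0.02 (SE 0.11) without the 3 rats low in cortical markers. Ntrk2 is made by astrocytes, in its truncated form, as well as by neurons. Within groups it correlated with the score of 8 astrocyte markers at r = 0.773 in experiment 2 (permutation p = 0.0061, adjusted p = 0.146; rho = 0.874, permutation p = 0.00094, adjusted p = 0.0672; 0.744 without the 2 farthest rats) and at r = 0.217 in experiment 1 (permutation p = 0.596; rho = 0.115, permutation p = 0.784). Neither passed the adjustment. The genes most like it were Prkd3, Ift81 and Pcbp2, with r from 0.670 to 0.809.

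Ntrk3, the receptor for neurotrophin-3, did not move detectably. In experiment 1 it had 61.7, 68.6, 72.8, 69.2 and 52.4 CPM in water rats and 72.0, 65.8, 63.0, 62.2 and 56.2 CPM in EtOH rats, with a log2 fold change of −0.02 (SE 0.10, 95% interval −0.23 to 0.19, edgeR FDR = 0.995; exact permutation p = 0.841). All EtOH rats lay inside the range of the water rats. Ntrk3 in experiment 2 had a lowest, median and highest level of 66.2, 74.3 and 89.4 CPM in water gavage rats and 58.1, 67.6 and 90.4 CPM in EtOH gavage rats. Its log2 fold change was −0.14 (SE 0.13, 95% interval −0.42 to 0.14, edgeR FDR = 0.675; exact permutation p = 0.346), and −0.20 (SE 0.16) without the 3 rats low in cortical markers. Most like it were Cnnm2, Khdrbs2 and Dclk3, with r from 0.695 to 0.790.

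Ngfr, which encodes p75NTR, had lower values in EtOH rats of experiment 1 at an unadjusted P. Its levels were 14.2, 29.3, 20.8, 7.84 and 4.23 CPM in water rats and 7.40, 2.59, 3.21, 8.51 and 16.1 CPM in EtOH rats, with 2 of 5 EtOH rats below every water rat. The means were 15.3 ± 10.1 and 7.55 ± 5.40 CPM (SD, n = 5), and the log2 fold change was −1.04 (SE 0.46, edgeR without filter, FDR = 0.839). The exact permutation test gave p = 0.183.

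In the forebrain p75NTR marks cholinergic neurons, chiefly those of the basal forebrain that borders the NAc. Within groups of experiment 1, Ngfr correlated with the score of 6 cholinergic markers (Chat, Slc5a7, Slc18a3, Lhx8, Isl1 and Zic4) at r = 0.841 (permutation p = 0.00549, adjusted p = 0.146) and rho = 0.721 (permutation p = 0.0236, adjusted p = 0.340), and at 0.709 without the 2 farthest rats. In experiment 2 r was 0.154 (permutation p = 0.658) and rho −0.01 (permutation p = 0.976). The summed level of 7 of the 8 listed cholinergic genes (these and Gbx1; the other was counted with the pathway genes) ranged from 113 to 317 CPM in water rats and from 116 to 210 CPM in EtOH rats, and the score was lower in EtOH rats by 0.36 log2 units (exact permutation p = 0.214). With this score as a covariate, a setting chosen after seeing the data, the log2 fold change of Ngfr was −0.10 and its unadjusted P was no longer below 0.05. The same loss was seen with the cortical score as a covariate (−0.60), with 1 surrogate variable (−0.65) and without water replicate 2 (−0.68).

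For Ngfr in experiment 2, the lowest, median and highest levels were 0.417, 2.73 and 6.55 CPM in water gavage rats and 0.452, 2.67 and 7.86 CPM in EtOH gavage rats. EtOH gavage rats differed from them by a log2 fold change of 0.27 (SE 0.61, 95% interval −1.04 to 1.58, edgeR without filter, FDR = 0.859; exact permutation p = 0.857), and 0.61 (SE 0.47, FDR = 0.482) without the 3 rats low in cortical markers. The levels of the 2 experiments came from different library kits and sequencers, so they are not compared. Its closest genes over rats were Slc6a11, a GABA transporter (r = 0.946 in experiment 1 and 0.845 in experiment 2), Tac3, which encodes neurokinin B (0.840 and 0.801), and Prr3 (0.806 and 0.772).

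Gdnf was near the floor of detection, and in experiment 1 it had reads in 5 of 5 water rats and 2 of 5 EtOH rats. The counts were 3, 4, 7, 1 and 8 in the water rats, 23 in all, and 0, 0, 0, 2 and 1 in the EtOH rats, 3 in all. The 4 lowest EtOH levels lay below every water rat, and EtOH replicate 4, with 2 counts, lay above the lowest water rat. The pooled ratio of EtOH to water was 0.142 (95% interval 0.0273 to 0.471, counting error only). The exact permutation test over rats gave p = 0.0159, against a share of 5.32% of 14024 genes under 0.05 in this test, and an adjusted p of 0.866 over them. EdgeR without filter gave FDR = 0.761. The result thus rests on 26 counts among 10 rats.

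In experiment 2, at higher depth, the Gdnf counts were 2, 0, 7, 0, 2 and 0 in water gavage rats and 2, 2, 0, 5, 5 and 2 in EtOH gavage rats. Reads were seen in 3 of 6 and 5 of 6 rats, with totals of 11 and 16. The pooled ratio was 1.58 (95% interval 0.690 to 3.78, counting error only), and the exact permutation test gave p = 0.372, where the smallest possible is 0.00216. No member was under 0.05 by that test in experiment 2, where 2.04% of 14121 genes were. The fitted log2 fold change, which at such counts depends on the prior count, was 0.60 (SE 0.93) with all rats and 0.74 (SE 1.17) without the 3 rats low in cortical markers. The log2 fold change differed between experiments by 3.19 (experiment 2 minus 1, SE 1.31, edgeR FDR = 0.830 in a fit of all 4 groups without filter). That fit named 2 of the 9 genes, Gdnf and Ret, at an unadjusted P below 0.05, against 3.13% of 13688 genes. Over genes above the filter in both experiments it named none of the 4 members tested, against 1.88% of 8176.

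Gfra1, the co-receptor for GDNF, had higher values in EtOH rats of experiment 1. It stood at 54.5, 57.7, 60.6, 49.4 and 50.05 CPM in the water rats and at 80.1, 49.8, 61.2, 87.8 and 91.7 CPM in the EtOH rats. Levels in 4 of 5 EtOH rats lay above every water rat, and EtOH replicate 2 lay within their range. The means were 54.5 ± 4.83 and 74.1 ± 17.97 CPM (SD, n = 5), and the log2 fold change was 0.44 (SE 0.14, 95% interval 0.13 to 0.75, edgeR FDR = 0.823). It ranked 75th by P of 8655 genes. The exact permutation test gave p = 0.0635. With all 4 groups in one fit, which shares the wider spread of experiment 2, the unadjusted P was no longer below 0.05.

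In experiment 2 the lowest, median and highest Gfra1 levels were 22.8, 45.5 and 82.1 CPM in water gavage rats and 25.5, 54.4 and 75.6 CPM in EtOH gavage rats. That gave a log2 fold change of −0.02 (SE 0.34, 95% interval −0.76 to 0.72, edgeR FDR = 0.978; exact permutation p = 0.840), an interval that also holds the value of experiment 1. The difference between the experiments was −0.46 (SE 0.43, edgeR FDR = 0.813). Gfra1 correlated with the cortical neuron score in experiment 2 (r = 0.867, permutation p = 3e-04, adjusted p = 0.0216; rho = 0.839, permutation p = 0.00197, adjusted p = 0.0709), and r was 0.709 without the 2 farthest rats and 0.583 without the 3 rats lowest in these markers. In experiment 1 r was −0.20 (permutation p = 0.524) and rho −0.08 (permutation p = 0.834). Without the 3 rats the log2 fold change was −0.17 (SE 0.27, edgeR FDR = 0.686).

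Gfra2, the co-receptor for neurturin, had 20.3, 30.3, 28.4, 20.5 and 24.4 CPM in water rats and 25.9, 21.2, 27.5, 41.2 and 38.1 CPM in EtOH rats of experiment 1. EtOH replicates 4 and 5 lay above every water rat and the others within the range. Gfra2 had a log2 fold change of 0.30 (SE 0.18, 95% interval −0.08 to 0.69, edgeR FDR = 0.898; exact permutation p = 0.222). In experiment 2 the lowest, median and highest were 3.61, 14.8 and 19.3 CPM in water gavage rats and 4.89, 11.8 and 18.1 CPM in EtOH gavage rats. In that experiment it had a log2 fold change of −0.20 (SE 0.45, 95% interval −1.18 to 0.78, edgeR FDR = 0.827; exact permutation p = 0.872), and −0.48 (SE 0.31, edgeR FDR = 0.366) without the 3 rats low in cortical markers.

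The 2 co-receptors varied together among rats of a group. Their within-group r was 0.800 over 10 rats in experiment 1 and 0.865 over 12 in experiment 2, and Gfra2 was the second closest gene to Gfra1 among 8175, between Podxl2 (0.864 and 0.838) and Golga2 (0.794 and 0.781). The closest to Gfra2 were Zfp423, Zdhhc1 and B3gat3, with r from 0.844 to 0.883. In experiment 2 Gfra2 also followed the cortical neuron score at r = 0.910 (permutation p = 0.00123, adjusted p = 0.0590; rho = 0.790, permutation p = 0.0059, adjusted p = 0.170; 0.875 without the 2 farthest rats), and in experiment 1 at r = 0.07 (permutation p = 0.825; rho = 0.333, permutation p = 0.347).

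Ret, the kinase through which GDNF and neurturin signal, had fold changes of opposite sign in the experiments without passing the FDR in either. It had 10.8, 11.7, 11.7, 5.80 and 11.7 CPM in the water rats and 6.06, 4.66, 4.81, 8.51 and 12.04 CPM in the EtOH rats. Water replicate 4 and EtOH replicate 5 went against the order of the other rats. The means were 10.4 ± 2.58 and 7.22 ± 3.10 CPM (SD, n = 5), and the log2 fold change was −0.55 (SE 0.27, edgeR without filter, FDR = 0.843; exact permutation p = 0.127).

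For Ret in experiment 2, the lowest, median and highest levels were 4.13, 6.31 and 7.36 CPM in water gavage rats and 5.44, 9.31 and 12.9 CPM in EtOH gavage rats. In 4 of 6 EtOH gavage rats Ret lay above every water gavage rat, as the plot of CPM by rat shows. The means were 5.96 ± 1.27 and 9.21 ± 3.29 CPM (SD, n = 6), and the log2 fold change was 0.62 (SE 0.28, 95% interval 0.03 to 1.21, edgeR without filter, FDR = 0.702; exact permutation p = 0.0584). It was 0.62 (SE 0.31, edgeR FDR = 0.378) without the 3 rats low in cortical markers. The difference between the experiments was 1.18 (SE 0.40, 95% interval 0.34 to 2.01, edgeR FDR = 0.830 in a fit of all 4 groups). Its closest genes were Fam151b, Polk and Otud4, with r from 0.702 to 0.836.

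**Figure D3:**
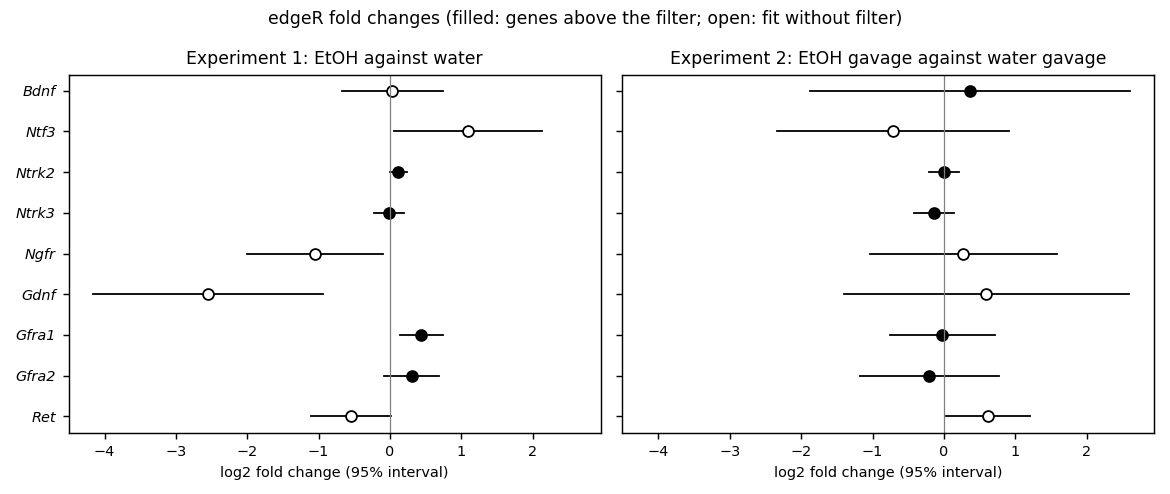
Log2 fold change (horizontal axis) of EtOH against water in experiment 1 and of EtOH gavage against water gavage in experiment 2, with its 95% interval as a line, for each gene (vertical axis). Filled circles are genes above the filter and open circles come from the fit without it. In experiment 1 the intervals of Ntf3, Ngfr, Gdnf and Gfra1 leave out 0, in experiment 2 that of Ret, and no gene has an FDR below 0.05.

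Of the 144 relations with marker scores, only 2 had an adjusted p below 0.05 by r, those of Bdnf and Gfra1 with cortical neuron markers in experiment 2, and 0 in experiment 1. No gene passed with the same list in both experiments. Of the 16 comparisons of a score between EtOH and control rats, the lowest p was for neuroblast markers in experiment 1, higher by 0.47 log2 units in EtOH rats (exact permutation p = 0.0159, adjusted p = 0.254), with summed levels of 7 genes from 211 to 281 CPM in water rats and from 281 to 395 CPM in EtOH rats. The neuroblast score averaged only 4 of these genes, Dcx, Dlx1, Sox11 and Cd24. All but Sox11 are genes that the study ranked high on these same rats, so the comparison is not an independent test. The cortical list holds Cux2, another such gene. The correlation of Ntf3 with projection neuron markers in experiment 1 was −0.85 (permutation p = 0.00712, adjusted p = 0.146; rho = −0.67, permutation p = 0.0538; −0.72 without the 2 farthest rats), at 1 to 23 counts a rat.

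**Figure D4:**
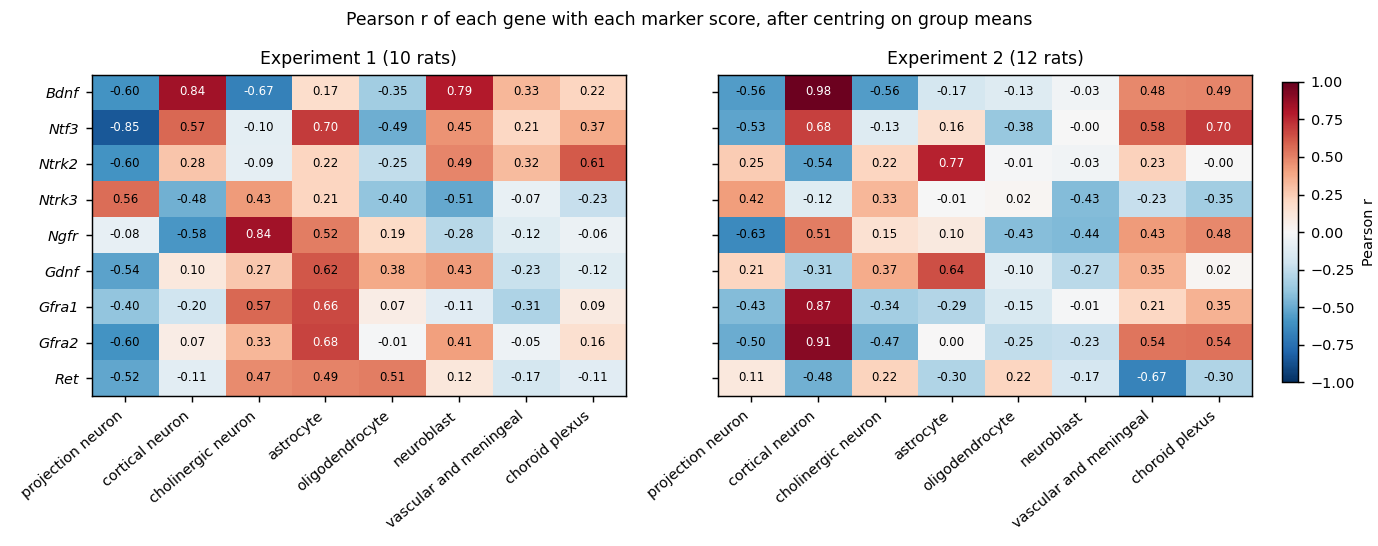
Pearson r between each gene (rows, log2 CPM) and the mean log2 CPM of each list of cell type markers (columns), after centring both on their group means, over 10 rats in experiment 1 and 12 in experiment 2. Bdnf and the cortical neuron score give 0.84 and 0.98. Gfra1 and Gfra2 with the same score give −0.20 and 0.07 in experiment 1 and 0.87 and 0.91 in experiment 2.

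The wider pathway was followed with 7 lists holding 88 genes, of which 87 were in the count tables and 68 passed the filter in each experiment. At an unadjusted P below 0.05, 6 of 68 (8.82%) were named in experiment 1, where 5.58% of all tested genes were, and 0 of 68 in experiment 2, where 1.33% were. None reached an FDR below 0.05 by edgeR in either. The median log2 fold change of the 68 genes was 0.01 in experiment 1 and −0.13 in experiment 2, beside −0.0012 and 0.00088 over all tested genes. Leaving out the 3 rats low in cortical markers, 14 pathway genes of experiment 2 had an unadjusted P below 0.05, and 1222 of all 8655 genes did.

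Among the other neurotrophin ligands and receptors, the 4 tested sorting receptors that bind proneurotrophins or related ligands, Sort1, Sorcs1, Sorcs2 and Sorcs3, had log2 fold changes from −0.17 to 0.16 in experiment 1 and from −0.51 to 0.27 in experiment 2, all with an unadjusted P above 0.09. Ntf4, another ligand of TrkB, lay below the filter, with 4 counts over the 10 rats of experiment 1 and 9 over the 12 of experiment 2.

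Of the other GDNF family genes, Ncam1, an adhesion molecule that can also bind GDNF, had a log2 fold change of 0.02 in experiment 1 and −0.17 in experiment 2, and Sdc3, a syndecan that binds it, −0.0060 and −0.21. The other ligands Nrtn, Artn and Pspn had 27, 10 and 53 counts in all rats of experiment 1 and 1, 33 and 52 in experiment 2. Gfra3, Gfra4 and Gfral, their receptors and that of a related ligand, had 5, 127 and 17 counts in experiment 1 and 13, 132 and 27 in experiment 2. None of these 6 passed the filter.

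Downstream, the adaptor list had 1 gene with higher and 1 with lower values among 18 tested in experiment 1: Gab1, a docking protein of receptor kinases, at 0.22 (SE 0.10, edgeR FDR = 0.866), and Gab2, its relative, at −0.39 (SE 0.16, edgeR FDR = 0.866). Of 13 BDNF-responsive genes 3 were named, 2 with higher and 1 with lower values, where 5.58% of all tested genes were named. The ERK phosphatase Dusp6 was at 24.2 ± 1.82 CPM in water and 32.2 ± 6.73 CPM in EtOH rats, and its log2 fold change was 0.42 (SE 0.14, edgeR FDR = 0.823). The receptor kinase inhibitors Spry4 and Spry2 had opposite signs: Spry4 was at 0.34 (SE 0.16, edgeR FDR = 0.866) and Spry2 at −0.26 (SE 0.09, edgeR FDR = 0.861). The median of the 13 was 0.12. The same 5 genes in experiment 2, Gab1, Gab2, Dusp6, Spry4 and Spry2, had log2 fold changes of −0.21, 0.08, 0.07, −0.08 and −0.27, all with an unadjusted P above 0.19 by edgeR, and the median of the 13 was −0.20.

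In the remaining 3 lists no gene above the filter had an unadjusted P below 0.05 in either experiment. The lowest P among filtered genes that process proneurotrophins was that of Plat, tissue plasminogen activator (0.29 in experiment 1, SE 0.15, edgeR FDR = 0.869). Below the filter, the convertase Pcsk1, with 124 counts over the 10 rats, had an unadjusted P below 0.05 in the fit without it (0.68 in experiment 1, SE 0.32). Among filtered partners and effectors of p75NTR the lowest P was that of Ngfrap1, a p75NTR-associated protein (−0.12 in experiment 1, SE 0.07, edgeR FDR = 0.887). Among the filtered downstream kinases and factors it was that of Camk4, a calcium/calmodulin-dependent kinase (−0.31 in experiment 2, SE 0.16, edgeR FDR = 0.675).

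**Figure D5:**
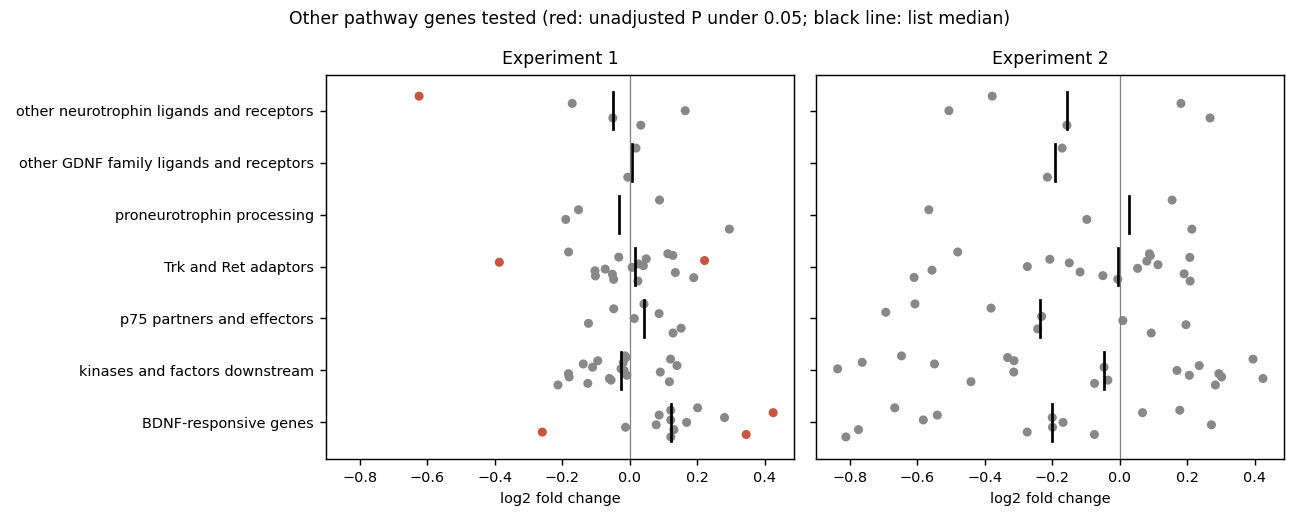
Log2 fold change (horizontal axis) of each tested gene of the 7 pathway lists (vertical axis), 68 in each experiment, with list medians as black lines. Red points have an unadjusted P below 0.05, 6 in experiment 1 and 0 in experiment 2, and none has an FDR below 0.05.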

How the data were processed

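Polyadenylated RNA was sequenced from the NAc of 22 rats, with non-stranded libraries in experiment 1 and stranded ones in experiment 2. Per the study's methods and the submitters' processing notes, the authors aligned reads to Rnor_6.0 with TopHat2 and counted them per gene with HTSeq. The deposited unit is raw read counts per gene. Summary lines that name no gene held 68.2% to 78.3% of each table's total and were left out. Among those lines was that for reads without a unique alignment, which were thus not assigned to a gene. The alignment settings for such reads are not given in the sources used here.

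Groups came from the labels, and doses and periods from the methods. Each experiment was fitted on its own with edgeR 4.0.16 in R 4.3.3 (TMM, quasi-likelihood test, Benjamini-Hochberg FDR), over genes whose base mean passed the median of all listed genes (43.6 and 66.4 counts). Log2 CPM used a prior count of 2. Exact permutation tests were two-sided. The edgeR fit was tested on simulated data. Nothing in the labels says how rats were drawn beyond the group, so P-values set a group difference against the spread between these rats only. No 2 rats of a group agreed within sampling noise. Counting intervals cover counting error only, and reads carried no molecular identifiers.

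The 9 genes, the pathway and marker lists and the tests were chosen with earlier results of these data known. The genes named are the 9, the genes of both lists of other ligands and receptors (some listed genes are counted but not reported here), genes of the other lists with an unadjusted P below 0.05 (or the lowest P of a list with none), and the 3 genes most like each member with a mean of at least 10 counts per rat. Alternatives were DESeq2 1.42.0, other filters and size factors, a joint fit, a replicate block, a surrogate variable (sva 3.50.0), marker scores as covariates and leaving out rats. Promoter sequences are from RefSeq, build GRCr8. Their coordinates are not those of the counted build.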

Additional observations from a re-analysis of the deposited data

Results flagged for a closer look

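Among 36 groups of rats (9 genes in 4 groups), a highest or lowest rat stood far from the others in 3 by Dixon's criterion at the 95% level. Chance gives about 1.8 for normally distributed values, which CPM of genes near the floor need not be. Ret was 5.80 CPM in water replicate 4 of experiment 1, where the other 4 water rats had 10.8 to 11.7 CPM, and the log2 fold change without it was −0.68. Gdnf was 0.892 CPM (7 counts) in water gavage replicate 3, where the others had 0 to 0.278 CPM, and the fitted log2 fold change without it was 1.67. Ntf3 was 3.14 CPM (26 counts) in EtOH gavage replicate 5, where the others had 0 to 0.750 CPM, and the log2 fold change without it was −1.84.

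For 2 genes the log2 fold change differed between the experiments at an unadjusted P below 0.05 in a fit of all 4 groups without filter. The difference, experiment 2 minus experiment 1, was 3.19 for Gdnf (SE 1.31, edgeR FDR = 0.830), which rests on 3 counts in the EtOH rats of experiment 1, and 1.18 for Ret (SE 0.40, edgeR FDR = 0.830). Neither passed the adjustment over all genes. The experiments also differed in control drink, kit and sequencer, and these cannot be told apart from the EtOH schedule.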

How the results depend on the processing

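Under every alternative run, 0 of the 9 genes and 0 pathway genes had an FDR below 0.05 in either experiment, and 0 of the 9 in the difference between experiments. Counts at an unadjusted P below 0.05 moved, and where no reason is given the cause was not tested. In experiment 1, the 1 member named became 3 by DESeq2, 4 with no filter, 2 with at least 10 counts in every sample and 2 by filterByExpr (more genes were tested in all 4 settings, and DESeq2 is also another test, by which Ngfr lost its P), and 2 with the cholinergic covariate and 0 with all 4 groups in one fit. Leaving out each rat gave 1 to 3 (3 without water replicate 4 or EtOH replicate 2, 2 without water replicate 5 or EtOH replicate 1). The 6 pathway genes became 0 with 4 groups in one fit and 3 to 10 when each rat was left out (10 without water replicate 5, 3 without water replicate 4 or EtOH replicates 3 or 5). Over all genes tested in experiment 1, 483 had P below 0.05 in the main fit. This became 632 by DESeq2, 562 with at least 10 counts, 634 by filterByExpr and 500 with the cholinergic covariate. It was 387 and 739 without water replicates 4 and 5, and 500, 656, 415 and 405 without EtOH replicates 1, 2, 3 and 5. In experiment 2, the 0 members became 1 by DESeq2, with no filter, with at least 10 counts, by filterByExpr and with 1 surrogate variable, and stayed 0 to 0 without each rat. The 0 pathway genes became 1 by DESeq2, 6 with 4 groups, 3 with 1 surrogate variable, 7 with the cortical and 2 with the cholinergic covariate, 14 without the 3 rats low in cortical markers, and 0 to 9 without each rat (9 without EtOH gavage replicate 4, 4 without water gavage replicate 1, 1 without water gavage replicates 3 or 6 or EtOH gavage replicate 1).

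Of 385 log2 fold changes of members recomputed, 306 kept their direction and their side of the P threshold of 0.05, 32 lost and 12 gained it, and 35 reversed, nearly all of values close to 0. In experiment 1 Bdnf was −0.0063 in the newer mode of glmQLFit and −0.55 with 1 surrogate variable (reversed, and P then below 0.05). It was −0.15 with the cortical and −0.31 with the cholinergic covariate, and −0.21 to 0.40 without each rat. Ntrk3 was 0.061, 0.024 and 0.048 with the surrogate variable, cortical and cholinergic covariates, and −0.094 to 0.029 without each rat. In experiment 2 Gfra1 was 0.0093 by DESeq2, 0.010 with no filter, 0.0085 by filterByExpr, 0.36 with 1 surrogate variable and −0.17 to 0.17 without each rat. With 1 surrogate variable Ntrk2 was −0.0082 and Gfra2 0.39, and Bdnf, 0.37 in the report, was 1.77 with 1 surrogate variable (P then below 0.05), 0.61 with the cortical and −1.08 with the cholinergic covariate. Without each rat Ntrk2 was −0.036 to 0.046 and Ngfr −0.13 to 0.66. Gfra1 in experiment 1 kept P below 0.05 in 20 of 21 alternatives and Gdnf in 18 of 18, while Ngfr lost it in 11 of 20, Ntf3 in 11 of 18 and Ret in experiment 2 in 9 of 23. It was gained by Ret in experiment 1 in 5 of 20 alternatives, by Ntrk2 in 3 of 21 and Gfra2 in 2 of 21 there, and in experiment 2 by Bdnf with 1 surrogate variable and by Ntf3 without EtOH gavage replicate 5.

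Replicate numbers did not pair the rats: same-numbered rats correlated from −0.13 to 0.14 in experiment 1 and from −0.76 to 0.84 in experiment 2, with 1 of 5 and 0 of 6 controls closest to their own number. With the replicate block the pathway count of experiment 2 was 7, Gfra1 in experiment 2 was 0.039, and all genes with P below 0.05 went from 483 to 476 in experiment 1 and from 115 to 414 in experiment 2. Over all genes, these counts ranged from 79 (4 groups in one fit) to 820 (no filter) in experiment 1 and from 30 (without water gavage replicate 2) to 1222 (without the 3 rats low in cortical markers) in experiment 2. In experiment 2 they were also 286 with no filter, 315 by DESeq2, 178 by filterByExpr, 623 with 4 groups, and 992 and 404 with the cortical and cholinergic covariates. The covariates and that last setting were chosen after seeing the data. Bdnf in experiment 1, Ntf3, Ngfr, Gdnf and Ret lay under the filter, with counts as low as 0 to 26 per rat for Gdnf and Ntf3.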
